A study of Mus musculus with 32 samples.

Results

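The myelin genes of mature oligodendrocytes described here are 9: Mbp, Mog, Mag, Mobp, Cnp, Mal, Myrf, Cldn11 and Opalin. They were taken by name from the deposited count matrix, and all 9 were found among its 54146 genes. RNA was sequenced from single hemispheres of hippocampus or striatum of male C57BL/6J mice aged 12 weeks, in 32 libraries of 8 groups with 4 mice each. In both regions the groups were HDACi CFC, HDACi Context, Veh CFC and Veh Context. HDACi mice had an intraperitoneal dose of 30 mg/kg CI-994, which blocks histone deacetylases of class I, 1 hour before behaviour, and Veh mice had vehicle. CFC mice had contextual fear conditioning with 2 foot shocks of 0.2 mA, Context mice entered the chamber without shocks, and tissue was taken 1 hour later. The labels give no transgene or mutation for any group. Cage mates shared 1 behavioural protocol, so cage and behaviour cannot be told apart.

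Oligodendrocytes wrap axons of the central nervous system in myelin, a compacted membrane that speeds conduction and supports the axon. Its proteins are made from very abundant mRNAs that appear as precursors mature, and their transcription depends on Sox10, Olig2 and Myrf. Histone deacetylases take part in this maturation, and deacetylase inhibitors are known to hold back the differentiation of precursors in culture. Mbp and Mobp encode basic proteins that compact the membrane, Mal a proteolipid of its lipid rafts, Cnp the enzyme cyclic nucleotide phosphodiesterase of non-compact myelin, and Cldn11 the claudin of its tight junctions. Mog lies on the outer face of the sheath, Mag is an adhesion molecule of the inner face next to the axon, Opalin is a sialylated membrane glycoprotein of oligodendrocytes, and Myrf is a membrane-bound transcription factor of myelin genes.

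Promoter windows of 300 bases, 250 before and 50 after the transcription start, were matched for 7 of the 9 genes in RefSeq (build GRCm38.p6). All windows were searched on both strands for CTGGCAC or CTGGTAC, core letters known for Myrf, and for ACAAAG or ACAATG, core letters known for Sox proteins. The windows of Opalin, Mog and Mag are printed because Opalin was the gene with the clearest drug response, Mog the gene that varied most closely with it, and Mag a gene that varied closely with Mbp (the first of its 3 windows is shown). They lie on the minus strand at chr19:41077064-41077363, chr17:37023349-37023648 and chr7:30914814-30915113 and are written 5′ to 3′ with matches in capitals. A match on the opposite strand appears as its reverse complement.
Opalin: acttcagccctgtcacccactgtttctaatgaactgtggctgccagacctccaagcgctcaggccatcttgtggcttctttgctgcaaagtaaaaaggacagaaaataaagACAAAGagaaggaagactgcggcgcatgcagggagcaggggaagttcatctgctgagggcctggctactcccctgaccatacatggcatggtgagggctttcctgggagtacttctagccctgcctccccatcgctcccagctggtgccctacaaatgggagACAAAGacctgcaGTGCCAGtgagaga
Mog: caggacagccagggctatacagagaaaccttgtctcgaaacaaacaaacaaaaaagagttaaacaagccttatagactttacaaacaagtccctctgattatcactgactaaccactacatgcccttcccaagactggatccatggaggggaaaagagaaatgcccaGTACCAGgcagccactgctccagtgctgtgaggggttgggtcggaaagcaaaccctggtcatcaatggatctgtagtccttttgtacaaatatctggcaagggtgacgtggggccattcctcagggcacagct
Mag: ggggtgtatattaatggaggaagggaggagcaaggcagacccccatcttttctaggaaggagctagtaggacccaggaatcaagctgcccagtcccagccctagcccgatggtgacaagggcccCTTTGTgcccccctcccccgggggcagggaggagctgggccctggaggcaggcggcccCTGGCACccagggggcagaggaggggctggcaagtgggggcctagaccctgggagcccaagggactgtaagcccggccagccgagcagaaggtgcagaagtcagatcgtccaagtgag
In the Opalin window ACAAAG lay 139 bases before and 23 bases after the start. CTGGCAC lay 36 bases after it. The Mog window held CTGGTAC 83 bases before the start. In the Mag window ACAAAG lay 126 and CTGGCAC 68 bases before the start. Over the 9 windows of the 7 genes, 4 genes (Opalin, Mog, Mag and Cnp) had CTGGCAC or CTGGTAC, which 7.10% of the 32851 windows in the table hold. Likewise 4 genes (Opalin, Mag, Mobp and Cnp) had ACAAAG or ACAATG, against 28.6% of all windows, and the Mobp window held ACAAAG 6 times. The counts are per gene, with a match in any of its windows enough, while the shares are per window. The share per gene was not computed. A match describes letters in these windows and not a bound site.

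Levels are given as CPM, a gene's count in 1000000 counts of its library, and per kilobase of merged exons where genes are compared. Library totals were 26026024 to 36670767 counts, and the 9 genes together took 0.200% to 0.335% of them in hippocampus and 0.286% to 0.599% in striatum. Markers set the labelled regions apart: 12 medium spiny neuron genes summed to 297 to 369 CPM in hippocampus and 7487 to 12354 CPM in striatum. Of 5 Schwann cell genes, which mark peripheral myelin, the sum was 1.27 to 3.74 CPM. In hippocampus, HDACi CFC replicates 2 and 4 stood apart with choroid plexus marker sums of 9530.2 and 9379.6 CPM, against 171 to 859 CPM in the other 14. In striatum, HDACi CFC replicate 2 and Veh CFC replicate 3 had the lowest medium spiny neuron sums (7487 and 7810.0 CPM), and results are also given without these 4 libraries where the call changed. Replicates 1 and 2 differed from replicates 3 and 4 in several members, as described below.

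By CPM per kilobase the 9 genes had the same order in both regions. Mbp (chr18:82475146-82585637) was first with 150.9 ± 29.7 in hippocampus and 274 ± 61.4 in striatum (SD, n = 16 libraries each, all treatments). Mobp (chr9:120149707-120181484) had 91.1 ± 10.1 in hippocampus and 180.0 ± 29.9 in striatum, and Mal (chr2:127633226-127656695) had 86.0 ± 11.7 and 147 ± 23.5. In hippocampus the ranges of Mobp and Mal overlapped almost fully, so their order there is within the spread of the libraries.

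The other 6 genes were lower. Cnp (chr11:100574904-100591729) had 56.8 ± 8.02 CPM per kilobase in hippocampus and 98.7 ± 15.5 in striatum, and Cldn11 (chr3:31149920-31164324) had 35.6 ± 3.99 and 63.7 ± 12.3. Mog (chr17:37010743-37023398) had 30.9 ± 4.03 and 53.7 ± 7.80, and Mag (chr7:30899176-30914873) had 24.8 ± 4.77 and 46.3 ± 10.5. The ranges of Cldn11 and Mog, and of Mog and Mag, overlapped in both regions. Opalin (chr19:41061710-41077113) and Myrf (chr19:10208272-10240748) were last and differed from each other by less than the SD, with 6.48 ± 1.72 and 6.19 ± 1.11 in hippocampus and 9.69 ± 2.59 and 9.53 ± 1.80 in striatum. All positions are in mm10. Exons of Cnp overlapped Dnajc7 on the opposite strand over 154 bases, and exons of Mobp overlapped Gm38642 over 79 bases, so a small share of their counts is uncertain.

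**Figure D1:**
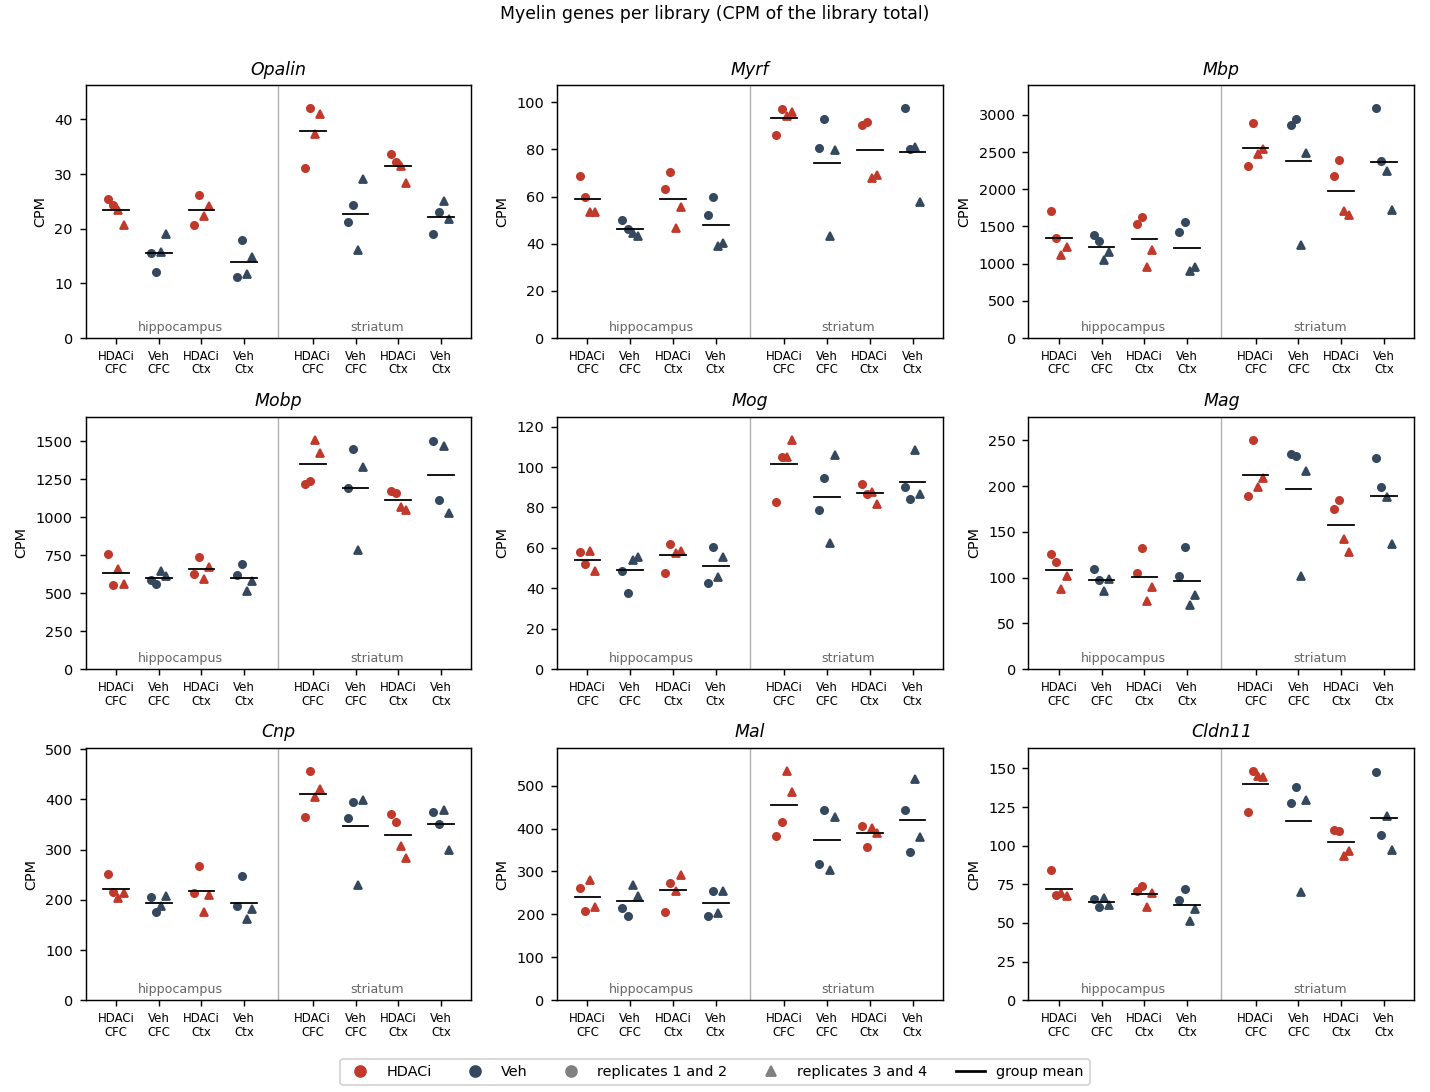
CPM of each gene in each of the 32 libraries, with HDACi left of Veh for each behaviour (Ctx is Context), hippocampus left of striatum, circles for replicates 1 and 2, triangles for replicates 3 and 4, and a bar at each group mean (n = 4). Opalin in HDACi libraries sits above Veh libraries in all 4 pairs, while most other genes overlap, and replicate 3 of striatum Veh CFC is lowest in its group for all 9 genes.

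All 9 genes were lower in hippocampus than in striatum in each of the 4 treatments. The median log2 fold change, hippocampus over striatum, was -0.95 in HDACi CFC, -0.68 in HDACi Context, -0.85 in Veh CFC and -0.92 in Veh Context. By edgeR's quasi-likelihood test with Benjamini-Hochberg adjustment over 19198 genes, 9 of 9 were called lower (adjusted p under 0.05) in every treatment. The share of all genes called lower was 23.2%, 25.5%, 20.8% and 19.9% in that order.

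Mobp differed most in 3 of the 4 treatments (Mag, at -1.02, in Veh CFC), with a log2 fold change of -1.13 (SE 0.140, adjusted p = 7.6e-08, edgeR) in HDACi CFC and -1.12 (SE 0.140, adjusted p = 1.0e-07) in Veh Context. Myrf and Opalin differed least, with -0.75 (SE 0.169) and -0.71 (SE 0.151) in Veh Context. No hippocampal library reached the lowest striatal library for Mobp, Mal or Mog. For Opalin, 7 of 16 striatal libraries lay below the highest hippocampal library (26.2 CPM), and for Myrf 4 of 16 did. On the TMM-scaled level (library totals adjusted for composition) the groups did not overlap for 9 of 9 genes in HDACi CFC and in HDACi Context, 5 of 9 in Veh CFC and 8 of 9 in Veh Context. The corresponding shares of all genes not overlapping and lower were 21.3%, 23.9%, 17% and 17.8%. In bulk tissue fewer oligodendrocytes and less RNA per oligodendrocyte cannot be told apart.

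**Figure D2:**
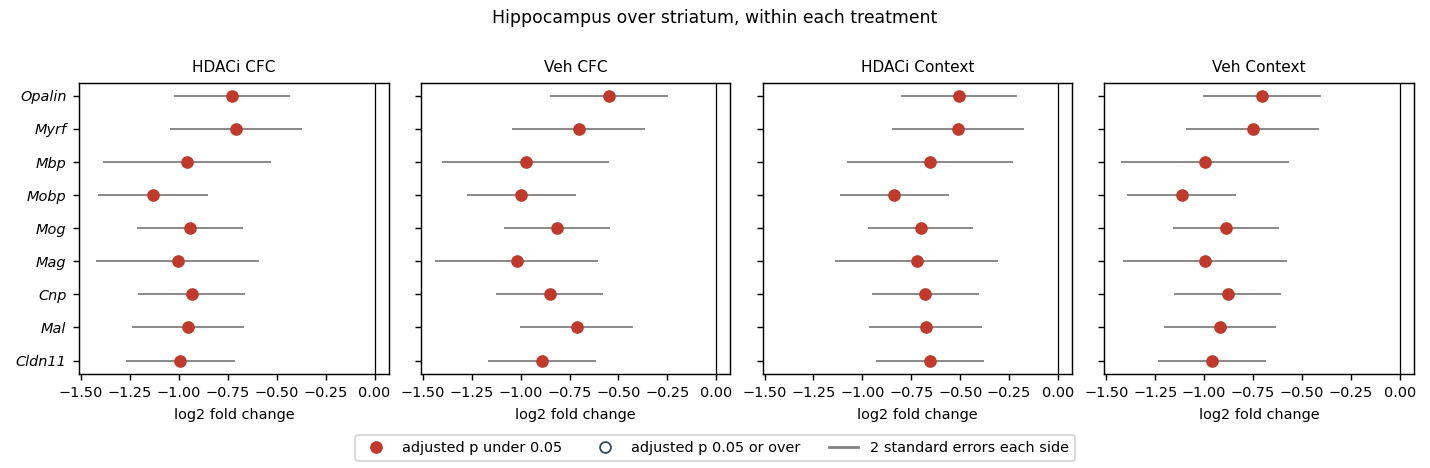
Log2 fold change of hippocampus over striatum for each gene in each treatment, with 2 standard errors each side. All 36 values lie below 0, from -1.13 for Mobp in HDACi CFC to -0.51 for Opalin and Myrf in HDACi Context.

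Opalin was the only one of the 9 genes called in all 4 comparisons of CI-994 with vehicle, and it was higher in each. In hippocampus after CFC it had 25.4, 24.3, 23.4 and 20.6 CPM in HDACi mice, against 15.6, 12.0, 15.8 and 19.1 CPM in Veh mice. In hippocampus after Context it had 20.7, 26.2, 22.3 and 24.1 CPM in HDACi mice, against 11.2, 17.9, 11.8 and 14.9 CPM in Veh mice. The groups did not overlap in either comparison.

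The striatum gave the same picture for Opalin at a higher level. After CFC it had 31.2, 42.0, 37.2 and 41.0 CPM in HDACi mice, against 21.1, 24.3, 16.2 and 29.1 CPM in Veh mice. After Context it had 33.7, 32.2, 31.5 and 28.3 CPM in HDACi mice, against 19.0, 23.1, 25.2 and 21.7 CPM in Veh mice. Again every HDACi library lay above every Veh library.

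The Opalin log2 fold change, HDACi over Veh, was 0.65 (SE 0.149, adjusted p = 0.0050) in hippocampus after CFC and 0.83 (SE 0.151, adjusted p = 0.00076) after Context, by edgeR's quasi-likelihood test. In striatum it was 0.82 (SE 0.136, adjusted p = 0.00031) after CFC and 0.61 (SE 0.136, adjusted p = 0.0033) after Context. These are 1.56-fold, 1.77-fold, 1.77-fold and 1.53-fold in that order. The call held in each of the 8 fits per comparison that left out 1 library, with a largest adjusted p of 0.017 over the 32 fits (edgeR). Within replicates 1 and 2 alone the value was 0.92, 0.78, 0.77 and 0.76 in that order, and within replicates 3 and 4 alone 0.39, 0.88, 0.86 and 0.44. With 2 libraries a group the call was missed in 3 of these 8 fits (adjusted p = 0.14 in hippocampus after CFC and 0.25 in striatum after Context for replicates 3 and 4, and 0.070 in hippocampus after Context for replicates 1 and 2). Relative to Mog in the same library, Opalin was 0.402 to 0.466 in HDACi CFC and 0.291 to 0.345 in Veh CFC hippocampus, and 0.389 to 0.436 in HDACi Context and 0.260 to 0.297 in Veh Context hippocampus. In striatum the ratio was 0.354 to 0.401 in HDACi CFC and 0.257 to 0.275 in Veh CFC, and 0.346 to 0.371 in HDACi Context and 0.210 to 0.274 in Veh Context. So Opalin changed unequally with Mog, and this ratio does not depend on how libraries are scaled. Mog was also the gene that varied most closely with Opalin in these libraries, which can narrow the ranges of this ratio. The share of Opalin in the sum of the 9 genes, also free of scaling, overlapped in hippocampus after CFC. There it was 0.758% to 0.919% in HDACi and 0.482% to 0.764% in Veh. It did not overlap in hippocampus after Context or in striatum after CFC or Context.

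Myrf was called higher in 1 of the 4 comparisons, in hippocampus after CFC. There it had 68.7, 59.9, 53.5 and 53.3 CPM in HDACi mice, against 50.1, 46.3, 44.6 and 43.3 CPM in Veh mice, with no overlap. The log2 fold change was 0.42 (SE 0.133, adjusted p = 0.033, edgeR). It was called in 3 of the 8 fits that left out 1 library, and the call was lost without the 2 libraries rich in choroid plexus markers, with log2 fold change 0.49 and adjusted p = 0.093.

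In hippocampus after Context, Myrf had 63.4, 70.2, 46.8 and 55.7 CPM in HDACi mice, against 52.1, 60.0, 39.2 and 40.3 CPM in Veh mice. These groups overlapped, and the log2 fold change of 0.38 (SE 0.133) had an adjusted p of 0.053 by edgeR. Replicate numbers paired the samples in this comparison. With the replicate block the Myrf log2 fold change was 0.39 with adjusted p = 0.0021 by edgeR. The number of the 9 genes called went to 3 (Opalin, Myrf and Cldn11). The block gave each replicate number 1 effect shared by all 4 groups of hippocampus. HDACi CFC was among them, and the numbers did not pair with it (lowest r -0.13, with Veh Context). So that fit does not rest on the pairing of HDACi Context with Veh Context alone. In striatum Myrf was not called, with 0.42 (SE 0.182, adjusted p = 0.11) after CFC and 0.13 (SE 0.182, adjusted p = 0.67) after Context. As a share of the sum of the 9 genes, Myrf took 2.05% to 2.26% in HDACi CFC and 1.73% to 1.87% in Veh CFC hippocampus, and 2.09% to 2.2% in HDACi Context and 1.81% to 1.96% in Veh Context hippocampus. In striatum the share was 1.71% to 1.80% in HDACi CFC and 1.52% to 1.60% in Veh CFC, and 1.73% to 1.96% in HDACi Context and 1.51% to 1.71% in Veh Context. For this share HDACi and Veh did not overlap in any of these 4 pairs. The ratio of Myrf to Mag in the same library overlapped in all but striatum after Context. In hippocampus it was 0.513 to 0.610 in HDACi CFC and 0.439 to 0.519 in Veh CFC. There it was 0.530 to 0.632 in HDACi Context and 0.450 to 0.560 in Veh Context. In striatum it was 0.388 to 0.474 in HDACi CFC and 0.343 to 0.426 in Veh CFC. After Context it was 0.477 to 0.540 and 0.402 to 0.431. Such values were not computed over all genes.

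**Figure D3:**
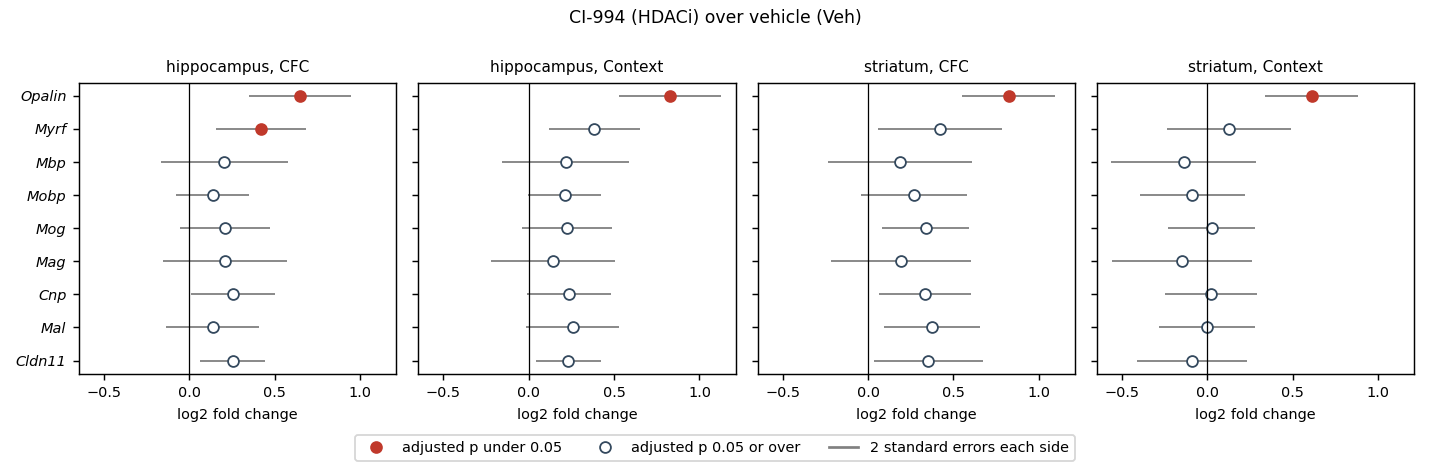
Log2 fold change of HDACi over Veh for each gene in the 4 comparisons, with 2 standard errors each side and filled points for genes called by edgeR. Opalin is filled in all 4 panels and Myrf in hippocampus after CFC, and in striatum after Context the other genes lie around 0.

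The remaining 7 genes, which make up most of the myelin mRNA, were not called in any drug comparison in the fit without a replicate block. With the block, Cldn11 was called in hippocampus after Context (0.23, adjusted p = 0.045, edgeR), where replicate numbers paired the samples. The block was also shared by HDACi CFC, which the numbers did not pair with. In all, 2 of 9 genes were called higher in hippocampus after CFC, 1 after Context, 1 in striatum after CFC and 1 after Context, and none was called lower. The share of all tested genes called higher was 7.42%, 6.55%, 9.57% and 10.3% in that order, and the share called lower was 13.4%, 13.2%, 14.6% and 14.5%. In either direction it was 20.8%, 19.8%, 24.2% and 24.8%. Of all called genes 35.7%, 33.1%, 39.6% and 41.5% were higher, and with plain library size scaling 23.6%, 19.0%, 23.5% and 21.4%. On the TMM-scaled level the number of the 9 genes whose groups did not overlap, all higher in HDACi, was 4, 1, 3 and 1, against 7.21%, 8.26%, 9.1% and 13% of all genes. The median log2 fold change of the 9 was 0.21, 0.23, 0.34 and -0.003, against 0.01, 0.01, 0.03 and 0.03 over all genes.

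Markers of other cell types moved in part in the same comparisons, and none of the lists counted next had a gene called lower. In the order above, 1, 2, 3 and 5 of 10 astrocyte genes, 0, 0, 2 and 1 of 10 microglial genes, 3, 1, 3 and 5 of 8 endothelial genes and 0, 0, 0 and 1 of 8 neuronal genes were called higher. Of the choroid plexus genes all 9 were called higher in hippocampus after CFC, 0 of 9 after Context, and 1 of 7 tested in each striatal comparison. Calls among medium spiny and hippocampal excitatory neuron markers are not counted here, so these counts do not say whether any of those genes was called lower. In hippocampus the excitatory marker sum was 1071 to 1301 CPM in HDACi Context and 861 to 1060 CPM in Veh Context. After CFC it overlapped, with 997 to 1206 CPM in HDACi and 941 to 1123 CPM in Veh. Without the 4 libraries that stood apart Opalin had log2 fold changes of 0.72, 0.82, 0.64 and 0.59, with a largest adjusted p of 0.016 (edgeR). The part of cell composition in the other values was not tested.

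Cldn11 and Cnp came nearest to a call in hippocampus after CFC. Cldn11 had 84.4, 68.0, 69.3 and 67.3 CPM in HDACi mice, against 65.3, 60.2, 66.4 and 61.7 CPM in Veh mice, with a log2 fold change of 0.25 (SE 0.095, adjusted p = 0.071, edgeR). Cnp had 251, 216, 203 and 214 CPM in HDACi mice, against 205, 177, 187 and 207 CPM in Veh mice, with 0.25 (SE 0.123, adjusted p = 0.17). Cldn11 groups did not overlap while 1 HDACi library of Cnp lay below 2 Veh libraries in CPM, and neither gene passed the test. Cldn11 was called in 5 of 12 alternatives there, with the replicate block among them (adjusted p = 0.033, edgeR), and Cnp in 0 of 12. Replicate numbers did not pair these groups (lowest r 0.034).

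Mbp showed the widest intervals. In hippocampus after CFC it had 1713, 1349, 1111 and 1229 CPM in HDACi mice, against 1383, 1309, 1055 and 1159 CPM in Veh mice, which overlapped. Its log2 fold change of 0.20 (SE 0.186, adjusted p = 0.51, edgeR) has an interval of 2 SE from -0.17 to 0.58. The interval spans no change, so the direction of the Mbp response was not resolved. Mag had 0.21 (SE 0.181) there, Mog 0.21 (SE 0.131), Mobp 0.14 (SE 0.107) and Mal 0.14 (SE 0.135). After Context in hippocampus the 7 genes had 0.14 to 0.26, with adjusted p of 0.11 to 0.67 without the replicate block, and with it the 6 genes other than Cldn11 had adjusted p of 0.061 (Mbp) to 0.29 (Mag) by edgeR.

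In striatum after CFC, the 8 genes other than Opalin had positive values without a call in the fit without a replicate block, and 1 vehicle library was low for all of them. Mal had 381, 416, 535 and 485 CPM in HDACi mice, against 317, 443, 304 and 428 CPM in Veh mice, with 0.37 (SE 0.141, adjusted p = 0.065, edgeR). Mog had 0.34 (SE 0.128, adjusted p = 0.067), Cnp 0.33 (SE 0.135), Cldn11 0.35 (SE 0.160), Mobp 0.27 (SE 0.154), Mag 0.19 (SE 0.206) and Mbp 0.19 (SE 0.211). Of these 8, Mal was called in 3 of 12 alternatives, Myrf and Cnp each in 2 and Mog in 1. Replicate 3 of Veh CFC was the lowest library of its group for 9 of 9 genes, with 1246 CPM of Mbp against 2866, 2939.8 and 2481 in the other 3. Without it the log2 fold change of Mbp was -0.023 and that of Mag -0.019. The same library had the highest sum of general neuron markers in striatum (6105 CPM, against 4787 to 5995 in the other 15). The part of tissue composition in this result was not tested.

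In striatum after Context the 8 genes other than Opalin had values from -0.15 (Mag, SE 0.206) to 0.13 (Myrf), with adjusted p of 0.65 to 0.99. Mbp had 2172, 2391, 1711 and 1656 CPM in HDACi mice, against 3087, 2383, 2250.3 and 1728 CPM in Veh mice, and the groups overlapped. The sign of Mog, Cnp and Mal there changed with the processing. Library size scaling moved the median of all genes in this comparison by -0.11 log2.

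Conditioning was not followed by a called change of any of the 9 genes. By edgeR, 0 of 9 genes and 0% of all genes were called for CFC over Context under HDACi or under Veh in hippocampus or striatum, and 0% for the interaction of drug and conditioning in each region. At an unadjusted p under 0.05 there were 775 genes under HDACi and 188 under Veh in hippocampus, and 988 and 216 in striatum, and 390 and 380 for the interactions. DESeq2 called 0, 1, 2 and 0 genes for the conditioning contrasts in that order and 1 and 0 for the interactions, none of them among the 9.

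In striatum under HDACi all 9 genes had higher means after CFC than after Context, by 0.18 to 0.41 log2. Cldn11 had 122, 148, 145 and 145 CPM in HDACi CFC mice, against 110.0, 109, 93.3 and 96.6 CPM in HDACi Context mice, without overlap. Its log2 fold change of 0.41 (SE 0.160) had an unadjusted p of 0.021 and an adjusted p of 0.84 by edgeR. Mag was the other gene without overlap, with 0.38 (SE 0.206), so 2 of 9 genes did not overlap and were higher, against 1.22% of all genes (1.58% were lower without overlap). In the other 3 conditioning contrasts the values of the 9 genes ran from -0.19 to 0.16, none without overlap. The shares of all genes higher and lower without overlap were 0.723% and 1.11% in hippocampus under HDACi, 0.433% and 0.394% in hippocampus under Veh, and 0.493% and 0.482% in striatum under Veh.

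The drug effect was not shown to differ between behaviours or regions for any of the 9 genes. The interaction in striatum was positive for 9 of 9 genes, from 0.21 (Opalin, SE 0.192) to 0.44 (Cldn11, SE 0.226), with adjusted p near 1 by edgeR. For the difference of the drug effect between hippocampus and striatum, 0 of 9 genes were called, against 0.266% of all genes after CFC and 0.62% after Context. For Opalin that difference was -0.18 after CFC (2 SE interval -0.60 to 0.24) and 0.20 after Context (-0.22 to 0.62). These intervals are as wide as many of the drug effects themselves.

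Other oligodendrocyte genes were read from lists for stages of the lineage, whose counts are descriptions beside the shares of all genes given above. Of 18 other structural myelin and paranodal genes, 2 were called higher in hippocampus after CFC, 2 after Context, 5 in striatum after CFC and 0 after Context, and 0 lower. Gjc3, a connexin of oligodendrocytes, and Cd9, a tetraspanin, were the genes called in the first 3 of these comparisons. Gjc3 had 79.5, 72.6, 83.3 and 65.0 CPM in HDACi CFC hippocampus, against 59.5, 41.7, 64.8 and 60.5 CPM in Veh CFC, with a log2 fold change of 0.47 (SE 0.135, adjusted p = 0.020, edgeR). The lowest HDACi library lay just above the highest Veh library.

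Of 26 other markers of mature oligodendrocytes, Gjc3 again among them, 5, 4, 10 and 0 were called higher in the same order and 0 lower, with medians of 0.26, 0.27, 0.35 and 0.00. Car2 (carbonic anhydrase of oligodendrocytes and other cells) and the cytokine gene Il33 rose in the first 3 comparisons, by 0.31 and 0.50 log2 in hippocampus after CFC. Trf, the transferrin gene, had 0.87 there, but 63.5% of its exon bases are shared with Gm20425 on the same strand, so its count is uncertain. Enpp2 had a log2 fold change of 3.42 there with 176, 3472, 193 and 3514 CPM in HDACi mice, against 161, 135, 232 and 182 CPM in Veh mice. Its high values lay in the 2 libraries rich in choroid plexus markers, a tissue that also expresses it. Enpp2 is itself 1 of those choroid plexus markers, so its values are part of the sums that set these libraries apart. It also counts in both lists. Of 17 myelin lipid synthesis genes, 2, 2, 2 and 1 were called higher and 1, 0, 0 and 2 lower. Elovl7 of this list ran from 11.2 to 52.5 CPM (SD 22.2) in HDACi CFC hippocampus, against 8.90 to 14.0 CPM (SD 2.21) in Veh CFC. The part of choroid plexus tissue in the Elovl7 values was not tested. Scd2, a stearoyl-CoA desaturase, rose in all 4 by 0.23 to 0.33, while Cyp51 of the cholesterol pathway fell by 0.29 in hippocampus after CFC and by 0.43 in striatum after Context.

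Several regulators of the lineage changed. Sox10, the factor that activates Myrf and many myelin genes, had 34.2, 28.4, 21.7 and 24.6 CPM in HDACi CFC hippocampus, against 16.2, 13.0, 10.7 and 9.71 CPM in Veh CFC. Its log2 fold change was 1.20 (SE 0.232, adjusted p = 0.0013, edgeR) there, 0.94 (adjusted p = 0.0080) after Context, 1.14 (adjusted p = 0.0032) in striatum after CFC and 0.70 (adjusted p = 0.052) after Context. Olig2, a basic helix-loop-helix factor of the lineage, rose in all 4 by 0.65, 0.76, 0.88 and 0.83. Of 17 transcription factors and remodellers 3, 5, 6 and 2 were called higher and 2, 2, 3 and 1 lower, with Zfp24 lower in all 4 (-0.44, -0.42, -0.35 and -0.37).

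Genes of earlier stages and inhibitors of differentiation rose in part. Gpr17, a receptor of newly formed oligodendrocytes that restrains maturation, had 96.0, 96.9, 110 and 116 CPM in HDACi CFC hippocampus, against 80.1, 68.0, 72.2 and 71.2 CPM in Veh CFC, without overlap. Its log2 fold change was 0.59, 0.64, 0.68 and 0.57 in the 4 comparisons, each called, with a largest adjusted p of 0.0011 (edgeR). Of 12 markers of newly formed oligodendrocytes 3, 3, 5 and 5 were called higher, with Gpr17, Neu4 and Tns3 in each, while Bcas1 was called in none and Enpp6 in striatum after CFC alone (0.45, adjusted p = 0.046). Of 11 inhibitors of differentiation 4, 4, 6 and 4 were called higher, Notch1 among them in all 4 (0.78 to 1.05). Of 10 precursor markers 2, 2, 3 and 4 were called higher, with the growth factor receptor Pdgfra (0.51 to 0.59) and the proteoglycan Cspg4 (0.68 to 0.77) in each. These lists overlap: Gpr17 and Bmp4 are both newly formed markers and inhibitors, and Sox6 is both an inhibitor and a precursor marker, so Gpr17 counts in both of its lists in all 4 comparisons. None of the genes of these last 3 lists was called lower.

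**Figure D4:**
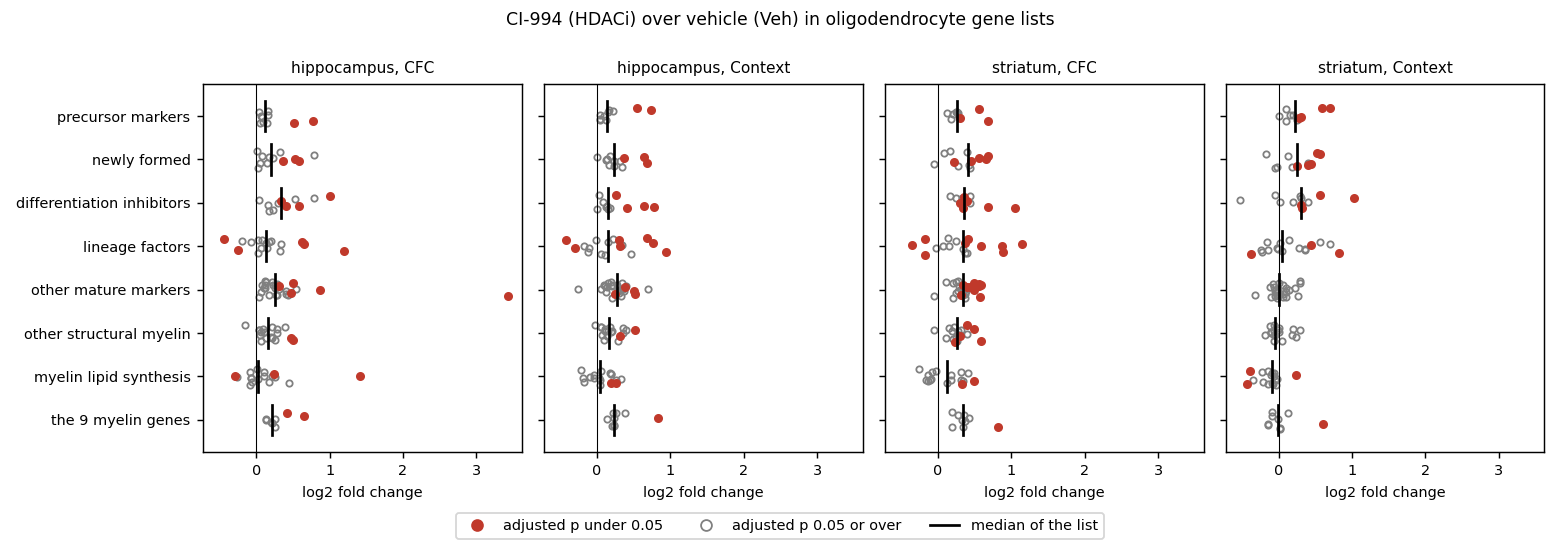
Log2 fold change of HDACi over Veh for the genes of 7 lists of the oligodendrocyte lineage and for the 9 myelin genes, 1 point a gene, with a bar at each list's median and filled points for genes called by edgeR. The median of the 9 myelin genes is 0.21, 0.23, 0.34 and -0.003 from left to right, and the point at 3.42 is Enpp2.

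Between libraries of 1 group the 9 genes did not vary as 1 unit. With group means removed, the 36 pairs had Pearson r of log2 CPM from -0.22 to 0.97 in hippocampus (median 0.63) and from 0.27 to 0.99 in striatum (median 0.78, 16 libraries per region). Of the 36 pairs 20 in hippocampus and 20 in striatum had an adjusted p under 0.05 in a permutation test within groups (100000 permutations, two-sided, Benjamini-Hochberg over 72 pairs). The test took libraries as exchangeable within each group and independent between groups. Same-numbered libraries of some groups shared deviations, and members differed between the replicate sets. The permutation p-values here and below can therefore be too small.

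The groups of genes named next were picked after the values were seen: Mbp, Mag and Myrf, and Mog, Opalin and Mal. Mbp and Mag had r = 0.94 in hippocampus (Spearman rho 0.95, permutation p = 2e-05, adjusted p = 0.00072), and 0.93 without the 2 libraries farthest from the median. In striatum Mbp and Mag had r = 0.99 (rho 0.96, permutation p = 1e-05, the smallest these permutations can give, adjusted p = 0.00072), and 0.96 without those 2. Mog and Opalin had r = 0.93 in hippocampus (rho 0.84, permutation p = 7e-05, adjusted p = 0.00084), and 0.87 without 2 libraries, and 0.89 in striatum (rho 0.82, permutation p = 0.0014, adjusted p = 0.0049), and 0.75 without 2.

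Between these groups of genes the relation was weak or absent in hippocampus. Mbp and Mal had r = -0.22 in hippocampus (rho -0.24, permutation p = 0.47, adjusted p = 0.52). Within replicates 1 and 2 alone this r was 0.83, and within replicates 3 and 4 alone 0.06. Each r within a set of replicates rests on 4 differences, 1 between the 2 libraries of each group. So these values cannot show whether the relation depended on the replicates. For Mbp and Mog in hippocampus r was -0.08 (rho -0.05, permutation p = 0.78, adjusted p = 0.80), with 0.64 and -0.06 within the 2 sets of replicates. Within replicates 1 and 2 and within 3 and 4, Mbp and Mag had r = 0.63 and 0.94 in hippocampus and 0.89 and 1.00 in striatum, and Mog and Opalin 0.98 and 0.82 in hippocampus and 0.59 and 0.99 in striatum. The striatal values for replicates 3 and 4 include the low replicate 3 of Veh CFC. It had 10.25 log2 CPM of Mbp against 11.21 in replicate 4, and 6.64 of Mag against 7.69, the widest gaps of the striatal groups. The r within sets was not computed without it.

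**Figure D5:**
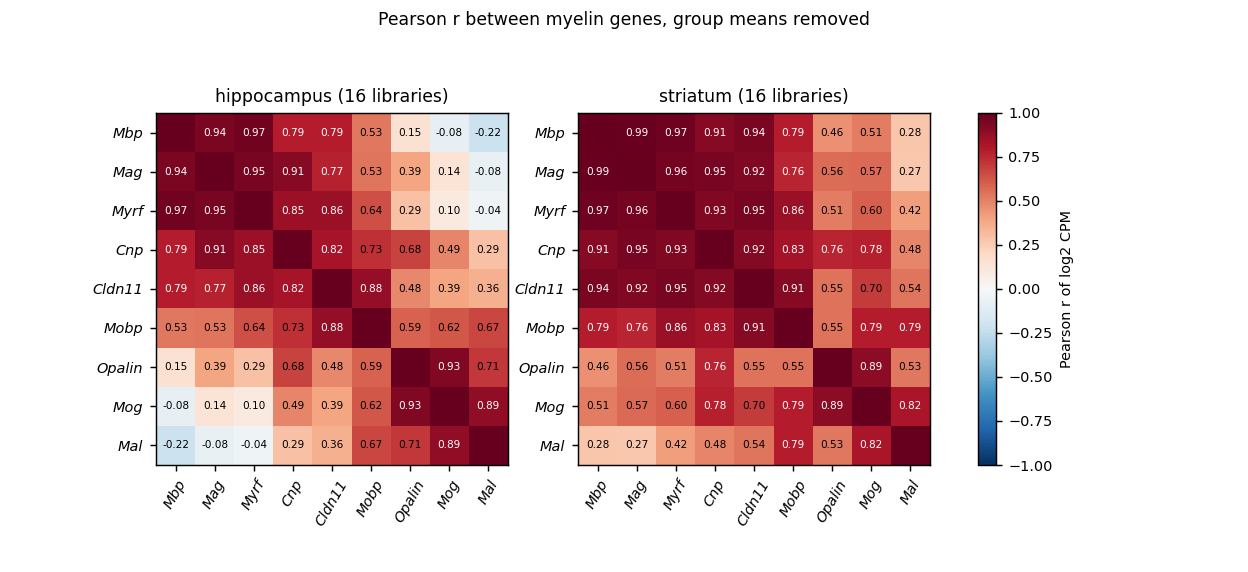
Pearson r of log2 CPM between each pair of the 9 genes over 16 libraries per region, with group means removed. In hippocampus Mbp, Mag and Myrf (r of 0.94 to 0.97) stand apart from Mog, Opalin and Mal (0.71 to 0.93), and in striatum all pairs are positive.

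The replicate sets differed along the same lines only in part. The mean log2 CPM of replicates 1 and 2 minus that of replicates 3 and 4 was positive for Mbp in 8 of 8 groups (0.04 to 0.72) and for Mag in 8 of 8 (0.09 to 0.64), while for Mal it was negative in 7 of 8 (-0.36 to 0.05). For Myrf it ran from -0.06 to 0.54. Mog (-0.36 to 0.08) and Opalin (-0.35 to 0.18) had both signs and did not follow the replicate sets as Mal did. Transcripts of Mag and Myrf had 57.6% GC and those of Opalin, Mal, Mog and Mbp 45.8% to 51.0%. The within-group SD of Mbp was 0.30 log2 in hippocampus and 0.35 in striatum, against medians of 0.139 and 0.135 over genes above 3 log2 CPM. The part of sample handling in this split was not tested.

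The genes most like the mean of the 9 in these deviations, by the smaller of both regional r among 12946 genes over 16 libraries per region, were Prr18, Sept4, Fa2h, Tmem63a, Bcas1, Scd2, Rffl, Ttyh2, Plekhh1 and Galnt6, with smaller r of 0.92 for Prr18 to 0.85 for Galnt6. Fa2h encodes the hydroxylase of myelin lipids and Sept4 and Tmem63a are other markers of mature oligodendrocytes. Among the 9 themselves Cnp was closest to the mean (0.96) and Mal farthest (0.46), each gene being part of that mean. Exons of Rffl overlap Lig3 on the opposite strand over 30.8% of their bases.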

How the data were processed

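RNA was measured by stranded TruSeq mRNA sequencing (100-base paired-end reads), per the labels' protocols. The authors deposited raw counts per gene for 32 libraries. Per the submitters' processing notes, which state no roles, the tools include STAR 2.6, bcl2fastq 2.20.0 and DESeq2 and the build is mm10. How reads were counted, with which annotation and strand, is not given in the sources used here; overlapping genes are uncertain. Of 54146 gene identifiers 54079 had a symbol in GENCODE M21, which also gave positions, exon lengths and GC content. Identifiers without one (67) took no more than 0.0264% of any library.

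Replicates differed beyond sampling noise in every pair (chi-square over its degrees of freedom 5.77 to 67.7). Per the labels each library is 1 region of 1 mouse, and p-values measure the spread between mice. The labels do not say whether both regions came from the same mice, and the fit across regions without the replicate block took libraries as independent. Counts were fitted with edgeR 4.0.16 in R 4.3.3 (TMM scaling, filterByExpr, quasi-likelihood F test, two-sided, Benjamini-Hochberg over all genes tested). Each region's 16 libraries were fitted with 4 group means (18261 genes in hippocampus, 18256 in striatum), and all 32 libraries with 8 group means for region comparisons (19198 genes). A gene was called at adjusted p under 0.05. All 9 genes passed the filter in every fit. Folds are 2 to the log2 fold change. Standard errors of drug effects had a median of 0.135 log2 in hippocampus and 0.138 in striatum. The fit was tested on simulated counts.

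Replicate numbers were taken to pair samples where all 4 same-numbered pairs had deviations from their group means correlated over 0.1. The lowest was 0.62 for Context in hippocampus and 0.25 for Context in striatum (HDACi with Veh), and 0.22 for CFC with Context under Veh in hippocampus. The other comparisons within a region had at least 1 pair below 0.1. The replicate block was 1 effect per replicate number shared by all groups of a fit, also by groups that the numbers did not pair. Between regions, same-numbered libraries correlated over 0.1 in 59 of 64 pairs (median 0.41, against -0.20 for different numbers). By this rule the numbers paired the regions in HDACi Context (lowest 0.43), Veh CFC (0.35) and Veh Context (0.52) and not in HDACi CFC (0.089).

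The genes always named were the 9, Sox10, Olig2, Bcas1, Enpp6 and Gpr17 (1 more is not reported here), with up to 3 genes of smallest adjusted p under 0.05 per list and comparison, and 10 genes most like the mean of the 9. The genes, lists and tests were chosen with earlier results of these data known. Alternatives were DESeq2 size factors in edgeR, the DESeq2 1.42.0 Wald test, no filter, library size scaling, GC content and length offsets, a replicate block with and without these offsets, a term splitting replicates 1 and 2 from replicates 3 and 4, each of those sets alone, only the groups compared, leaving out the libraries that stood apart, and leaving out each library in turn.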

Additional observations from a re-analysis of the deposited data

Results flagged for a closer look

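In 4 of the 72 combinations of gene and group (9 genes, 8 groups of 4 libraries), 1 library lay far from the other 3 for its group's range, and chance gives about 1 in 20 such cases. In striatum Veh CFC, replicate 3 had 102 CPM of Mag, against 217 to 235 in the other 3, and 70.0 CPM of Cldn11, against 128 to 138. This library was the lowest of its group for all 9 genes. In striatum HDACi CFC, replicate 1 had 122 CPM of Cldn11, against 145 to 148 in the other 3, and it too was the lowest of its group for all 9 genes. In hippocampus HDACi CFC, replicate 1 had 84.4 CPM of Cldn11, against 67.3 to 69.3 in the other 3, and it was the highest of its group for 7 of 9 genes.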

How the results depend on the processing

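Opalin kept its direction and its call in all 4 drug comparisons under every alternative except the sets of 2 replicates, and all 9 genes kept their direction between regions in every fit. The number of the 9 genes called for HDACi over Veh in hippocampus after Context was 1. It was 2 with DESeq2 size factors, the DESeq2 Wald test, GC content and length offsets, the replicate block with these offsets, or replicates 3 and 4 alone, it was 3 with the replicate block or the batch term for replicate sets, and it was 0 with replicates 1 and 2 alone. In striatum after CFC the number was 1, and it was 3 with the DESeq2 Wald test or the batch term, 4 with GC content and length offsets, and 2 with the replicate block and these offsets. In hippocampus after CFC it was 2, and it was 3, with Cldn11 added, with DESeq2 size factors, the DESeq2 Wald test, the batch term or the replicate block with or without the offsets, 1 with library size scaling or without the libraries that stood apart, and 0 with replicates 3 and 4 alone. In striatum after Context it was 1, and 0 with replicates 3 and 4 alone. The replicate block changed the number by over 1.5 times in hippocampus after Context alone, and with it 9 of 9 genes were called in each region comparison and 0 of 9 for the difference of the drug effect between regions, as without it. Leaving out 1 library gave 1 to 2 genes in hippocampus after CFC (1 without Veh CFC replicate 2, 3 or 4 or HDACi CFC replicate 1 or 2), 1 to 4 after Context (4 without Veh Context replicate 2, 2 without HDACi Context replicate 3) and 1 to 3 in striatum after CFC (3 without HDACi CFC replicate 1, 2 without Veh CFC replicate 2 or 4).

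Signs changed for values near 0. In striatum after Context, Mog was -0.087 with library size scaling, -0.0012 with GC content and length offsets, -0.0030 with the block and offsets and -0.11 with replicates 3 and 4. Cnp there was -0.093 with library size scaling, -0.10 with replicates 3 and 4 and -0.0058 without the libraries that stood apart. Mal there was 0.024 with GC content and length offsets, 0.0026 with the replicate block, 0.026 with both, 0.00044 with the batch term and 0.069 with replicates 1 and 2. In striatum after CFC, Mbp was -0.077, Mag -0.011 and Mobp -0.017 with replicates 1 and 2, and Mbp was -0.089 and Mag -0.11 without the libraries that stood apart. With 1 library left out, Mag ran from -0.011 to 0.33 in hippocampus after Context, and in striatum after CFC Mag ran from -0.019 to 0.29 and Mbp from -0.023 to 0.29, with both lowest without Veh CFC replicate 3. In striatum after Context, Cldn11 ran from -0.17 to 0.0022, Cnp from -0.046 to 0.077, Mal from -0.12 to 0.11 and Mog from -0.047 to 0.11. The cause of these changes was not tested. The mean of Mog in striatum HDACi Context was 91.3 on the TMM-scaled level and 86.9 in plain CPM. With 4 mice a group, drug effects of Mbp and Mag had SE of 0.18 to 0.21, and those under about 0.4 log2 could not be resolved. A call after adjustment took more than 2 SE. For example, Cldn11 in hippocampus after CFC (0.25, SE 0.095) had an adjusted p of 0.071 by edgeR. Effects of Mbp and Mag somewhat over 0.4 could thus also have gone uncalled.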
